A study of Mus musculus with 6 samples.

Results

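The genes described here are 34 genes of the antioxidant, glutathione and thioredoxin systems, taken by symbol from a table of 18493 genes measured in regulatory T (Treg) cells. They comprise the glutaredoxins, the enzymes that make and use glutathione, the thioredoxins and their reductases, the peroxiredoxins, the superoxide dismutases and catalase, the NRF2 axis and the methionine sulfoxide reductases. All 34 were found in the table and all 34 passed the filter on low counts. The cKO group held 3 libraries of CD4+CD25+YFP+ cells from Foxp3cre/+ TKTfl/fl female mice, in which Cre driven from the Foxp3 locus deletes Tkt, the gene of transketolase. The WT group held 3 libraries of the same sorted population from Foxp3cre/+ female mice with no floxed alleles named, so both groups carried the Cre allele. All mice were C57BL/6, untreated and 7 weeks old, and the cells came from spleen and lymph node. The design text calls the mice of both groups chimeric. Foxp3 is X-linked, so a female with a single Cre allele is a mosaic in which only a part of the Treg cells express Cre and YFP. The sources do not say whether a library pools animals, so a p-value here reflects the variation among these 6 libraries, which may be technical.

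Cells remove hydrogen peroxide and repair oxidized cysteines through a pair of parallel systems, built on glutathione and on thioredoxin. Both are recharged by NADPH, which glutathione reductase and the thioredoxin reductases consume and which the oxidative branch of the pentose phosphate pathway supplies. Transketolase belongs to the non-oxidative branch, which returns pentose phosphates to glycolysis. The transcription factor NRF2, held in check by KEAP1, drives many of these genes in stressed cells.

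The libraries held 17647866 to 18215168 estimated reads in cKO and 17180577 to 17715571 in WT. Levels are given as CPM, read counts scaled to library size, for comparisons between libraries, and as FPKM, which is scaled by gene length, for comparisons between genes. Tkt was lower in each cKO library (31.9 to 52.5 CPM) than in each WT library (97.1 to 126 CPM), with an adjusted p of 0.0516 in edgeR's quasi-likelihood test, so the targeted gene itself was just short of the threshold of 0.05. All 7 Treg markers were present, and Foxp3 stood at 559 to 676 CPM in cKO and 458 to 686 CPM in WT. Their sum was lower in each cKO library (3895 to 4192 CPM) than in each WT library (4326 to 4743 CPM). Of the 7, Ikzf2 alone, which encodes Helios, was separated, at 537 to 608 CPM in cKO and 626 to 714 CPM in WT (adjusted p = 0.642 in edgeR). Ctla4 overlapped, at 492 to 977 CPM in cKO and 753 to 1727 CPM in WT, and it supplied 1727 of the 4743 CPM in WT2. The log2 fold changes of Foxp3, Il2ra and Cd3e were 0.05, 0.005 and 0.06. Those of Cd4 and Tnfrsf18 were -0.11 and -0.10, and the groups overlapped for each of these genes. The lower sum is thus not a lower level of every marker. The part of the lower sum in the members' values was not tested. On the first principal component, which held 36.1% of the variance, cKO1 (33.2) and WT2 (25.4) were highest. There cKO2 was intermediate (8.11), and the remaining libraries lay between -25.9 and -18.4. Hspa1a, a heat shock gene, stood at 5.35 CPM in cKO1 and 12.7 CPM in WT2, against 26.4 to 163 CPM elsewhere. Markers of B cells summed to 16.7 to 34.5 CPM in cKO and 21.2 to 23.1 CPM in WT, and those of CD8 T and NK cells to 34.7 to 42.0 CPM in cKO and 37.8 to 42.4 CPM in WT. The stromal and endothelial markers summed to 20.2, 15.7 and 20.2 CPM in cKO1 to cKO3, against 2.99, 19.4 and 4.05 CPM in WT1 to WT3. The part of such cells in the members' values was not tested. The plasma cell sum, 93.3 to 131 CPM in cKO and 90.1 to 164 CPM in WT, was nearly all Xbp1, a gene of other cells too, while Jchain, Mzb1 and Sdc1 were under 2 CPM in every library. Erythroid and myeloid markers, which reached 199 CPM in cKO1 and 102 CPM in cKO2, are given beside the members concerned.

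Most antioxidant genes had similar levels in cKO and WT cells, and Glrx, lower in every cKO library, had the lowest p-value among them. No member passed the test over all genes in edgeR, where 0.202% of 12887 genes were called lower in cKO and 0.00776% higher. At an unadjusted p under 0.05 there were 2 members, Glrx (lower) and Gsto1 (higher), where 7.69% of all genes tested passed that bound, so the members' share was no larger. DESeq2 called 1 member, Glrx, lower, where it called 1.19% of all genes lower and 0.186% higher, and limma-voom called 0, where it called 0.140% lower. The median log2 fold change was 0.02 over the members and 0.004 over all genes tested, and 18 members lay above 0 and 16 below.

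The precision bounds how large a missed difference could be. The 95% interval of the log2 fold change lay wholly within 0.5 of 0 for 22 of 34 members (64.7%), and for 57.5% of all genes tested. The 12 members outside that band were Glrx and Gsto1, the low or variable genes Gss, Srxn1, Nqo1, Hmox1 and Hmox2, and Txn1, Txnrd2, Txnip, Prdx4 and Nfe2l2. Apart from Glrx, adjusted p-values ranged from 0.304 for Gsto1 to 0.998 for Sod2.

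**Figure D1:**
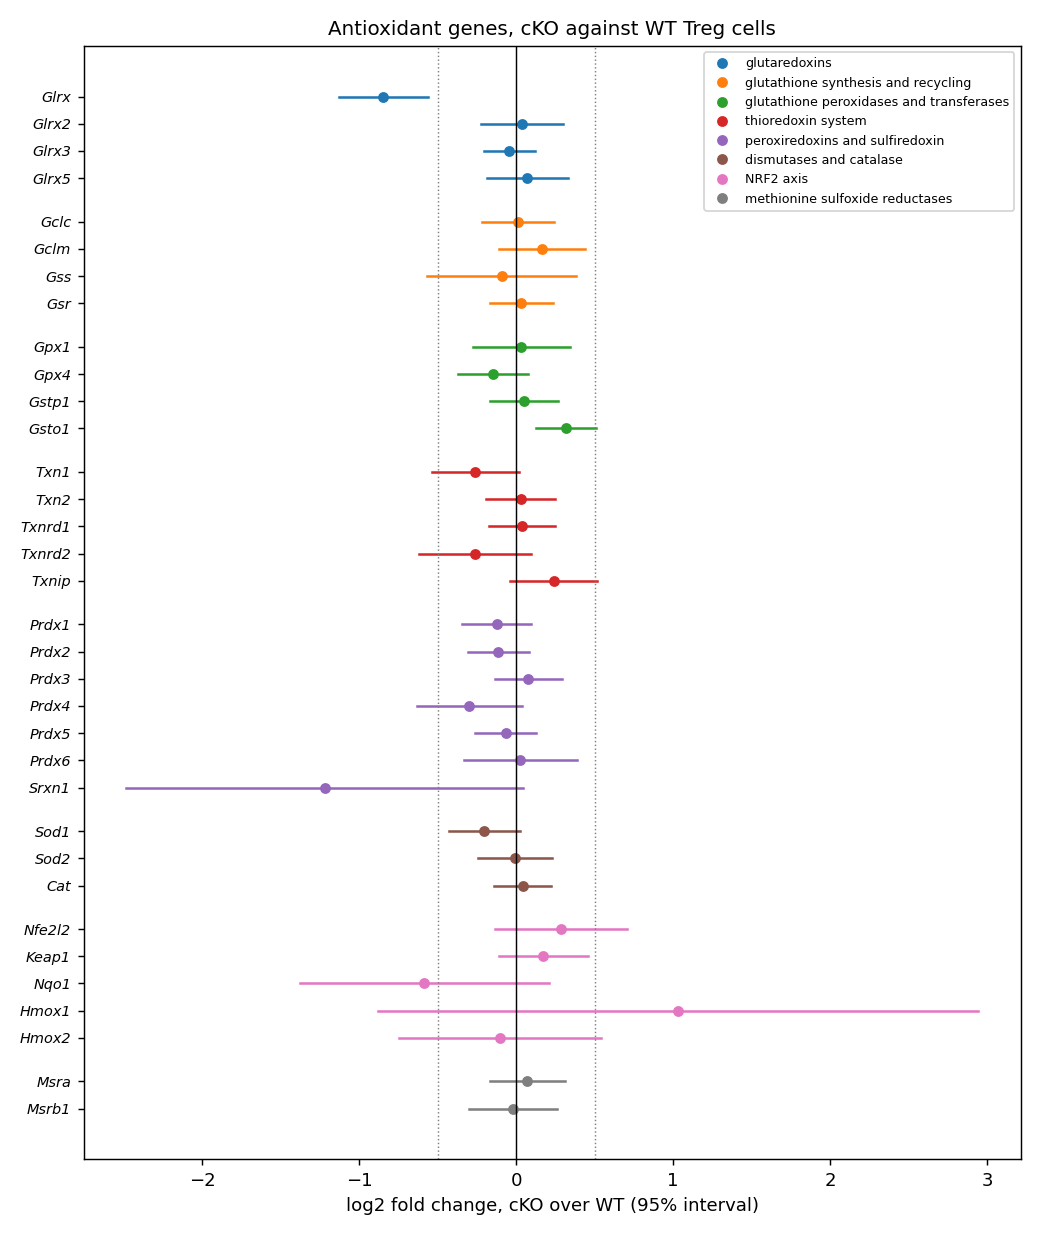
Log2 fold change, cKO over WT, of the 34 genes (points) with 95% intervals (lines) from edgeR, grouped by role. Dotted lines mark 0.5 on either side of 0. Glrx is the gene whose whole interval lies below -0.5, while 22 genes lie wholly inside the dotted band.

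Levels per length ranged widely between the members. Txnip was the most abundant by FPKM, at 247 ± 36.1 in cKO and 209 ± 21.0 in WT (SD, n = 3 each). Sod1 followed at 185 ± 13.3 FPKM in cKO and 213 ± 16.4 in WT, and Gstp1 at 136 in cKO and 133 in WT. The NRF2 targets Srxn1 and Nqo1 were at the bottom, under 1 FPKM in every library. Summed over the 34 genes, the level was 1522 ± 109 FPKM in cKO and 1547 ± 15.3 FPKM in WT, a difference smaller than the spread of the cKO libraries.

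**Figure D2:**
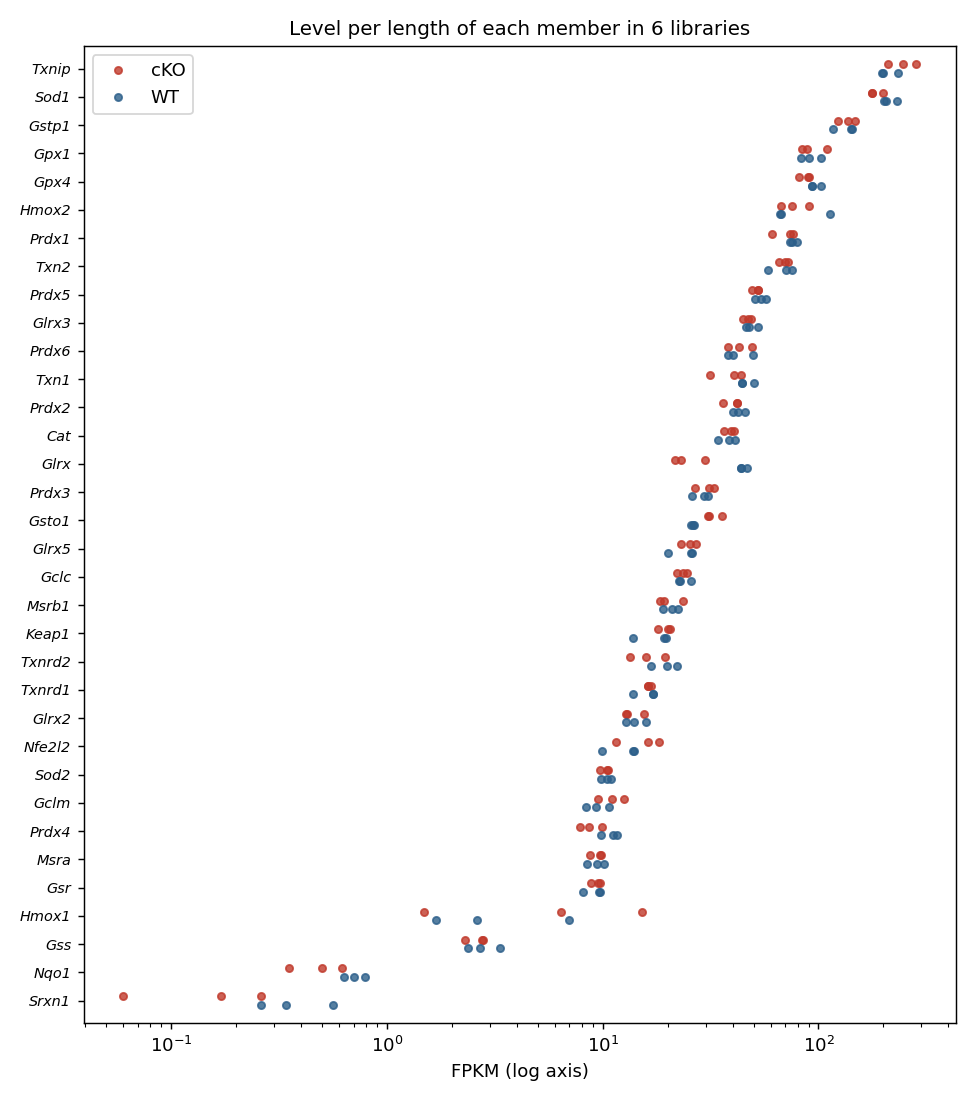
FPKM of each gene in the 3 cKO (red) and 3 WT (blue) libraries on a log axis, ordered by the mean over all 6. Txnip, Sod1 and Gstp1 lie at the top, Nqo1 and Srxn1 at the bottom, and the red and blue points of Glrx are separated.

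Glutaredoxins use glutathione to remove it from protein cysteines or to carry iron-sulfur clusters. Glrx encodes the cytosolic dithiol glutaredoxin, the main enzyme that strips glutathione from proteins. It stood at 29.2, 39.2 and 30.0 CPM in cKO1, cKO2 and cKO3, against 60.8, 59.1 and 57.2 CPM in WT1, WT2 and WT3. The highest cKO library lay well below the lowest WT library, and the WT libraries were nearly equal. The group means were 32.8 ± 5.53 CPM in cKO and 59.0 ± 1.81 CPM in WT (SD, n = 3 each). The fitted log2 fold change was -0.85 ± 0.12 (SE), with a 95% interval of -1.13 to -0.56, or a level 1.80-fold lower in cKO. By p-value Glrx took place 42 of 12887 genes, and its adjusted p in edgeR was 0.0572, above the threshold. Of 17 alternative settings 3 called it, and the extremes of its adjusted p were 2.19e-06 (DESeq2) and 0.245 (WT1 left out). In bulk libraries, fewer cells that express a gene and less RNA per cell cannot be told apart.

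The other glutaredoxins were near equal in cKO and WT. Glrx2, the mitochondrial and nuclear dithiol form, stood at 19.4 ± 2.28 CPM in cKO and 18.9 ± 1.21 CPM in WT. Glrx3, a monothiol form of the cytosol that handles iron, stood at 67.2 ± 2.02 CPM in cKO and 69.3 ± 3.00 CPM in WT. Glrx5, which serves iron-sulfur cluster assembly in mitochondria, stood at 24.7 ± 1.58 CPM in cKO and 23.5 ± 2.75 CPM in WT. Their log2 fold changes lay between -0.04 and 0.07, and the libraries of the groups overlapped for each. By FPKM, Glrx made up 22.4 ± 2.48% of the summed glutaredoxin level in cKO and 34.0 ± 1.33% in WT (SD, n = 3 each). The summed level of the 4 genes was 102, 118 and 111 FPKM in the cKO libraries, below the 141, 123 and 131 FPKM of the WT libraries.

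**Figure D3:**
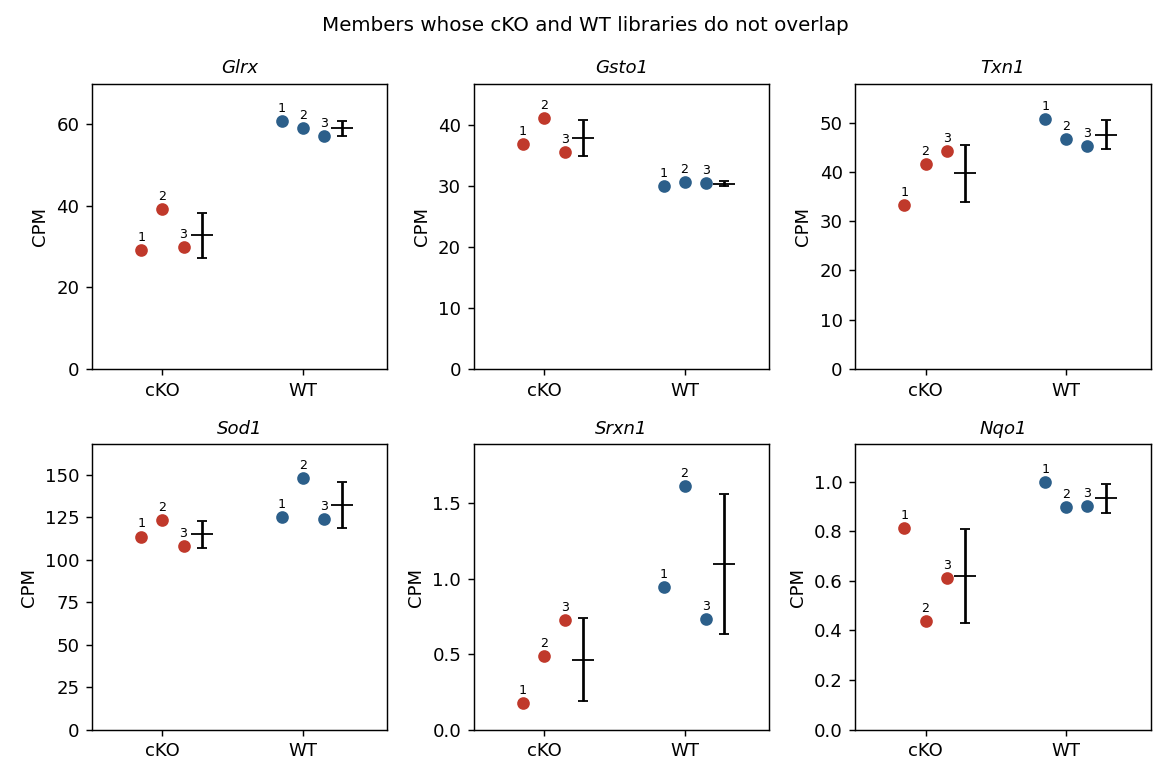
CPM in each library (points, numbered by replicate) with the mean and SD of each group (bars, n = 3) for the 6 genes whose cKO and WT libraries do not overlap. The gap is wide for Glrx (39.2 CPM at most in cKO, 57.2 CPM at least in WT) and narrow for Sod1, Txn1 and Srxn1.

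Glrx lies on chromosome 13 (GRCm38.p6, positions 75839885 to 75850151, plus strand). The 250 bases before its start site, chr13:75839635-75839884 in RefSeq's annotation of that build, are shown because Glrx is the member with the lowest p-value. Capitals mark a TGANTCA element, the AP-1 site, a motif chosen after the sequence had been seen.
Glrx: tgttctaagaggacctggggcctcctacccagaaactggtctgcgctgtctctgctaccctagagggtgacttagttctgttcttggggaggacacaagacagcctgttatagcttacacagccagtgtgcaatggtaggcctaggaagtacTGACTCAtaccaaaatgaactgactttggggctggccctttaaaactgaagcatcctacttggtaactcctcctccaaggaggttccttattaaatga
The window of 250 bases before to 50 after the start holds this element on either strand in 8.97% of 27025 genes, and in 4 of the 29 members with a window, which were Glrx, Gstp1, Prdx1 and Srxn1. A gene with several windows counted if any of them held it. The motif was chosen with the Glrx sequence in view, so the count of 4 includes a match known beforehand. A match of letters is a description of the sequence only.

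Glutathione is made in successive steps by glutamate-cysteine ligase, a dimer of the catalytic subunit Gclc and the modifier subunit Gclm, and by glutathione synthetase, Gss. Gclc stood at 79.9, 66.5 and 72.2 CPM in cKO1 to cKO3, against 68.6, 79.4 and 68.9 CPM in WT1 to WT3. Its highest values were those of cKO1 and WT2, the pair of libraries highest on the first principal component, which belong to different groups. Gclm stood at 23.9 ± 1.06 CPM in cKO and 21.3 ± 3.03 CPM in WT, with a log2 fold change of 0.16 ± 0.12 (SE). Gss was the least abundant of these enzymes, at 5.15 ± 0.616 CPM in cKO and 5.49 ± 1.10 CPM in WT. Gsr, glutathione reductase, which spends NADPH to recycle oxidized glutathione, stood at 25.1 ± 0.655 CPM in cKO and 24.5 ± 1.91 CPM in WT. Its log2 fold change was 0.03, with a 95% interval of -0.17 to 0.24, so that a shift beyond that range in either direction lies outside the interval.

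Glutathione peroxidases reduce peroxides at the expense of glutathione. Gpx1, which acts on hydrogen peroxide, stood at 88.4, 112 and 89.3 CPM in cKO1 to cKO3, against 91.1, 108 and 84.0 CPM in WT1 to WT3. Each group had 1 high library, and the groups overlapped throughout. Gpx4, which reduces lipid peroxides and guards against ferroptosis, stood at 82.5 ± 6.56 CPM in cKO and 91.3 ± 7.96 CPM in WT, and the log2 fold change was -0.15 ± 0.09 (SE), with an adjusted p of 0.827 in edgeR.

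Glutathione transferases couple glutathione to other molecules. Gsto1, an omega-class glutathione transferase with thiol transferase activity of the glutaredoxin type, stood at 36.9, 41.3 and 35.6 CPM in cKO1 to cKO3, against 30.0, 30.7 and 30.6 CPM in WT1 to WT3. Every cKO library lay above every WT library, and the WT libraries were nearly equal. The log2 fold change was 0.32 ± 0.08 (SE), a level 1.25-fold higher in cKO, and the adjusted p in edgeR was 0.304, so the gene was not called. Gsto1 was the 1 member with separated groups in that direction, where 6.10% of all genes tested were separated that way. Gstp1, a pi-class transferase of toxic electrophiles, stood at 101.2 ± 7.40 CPM in cKO and 97.7 ± 8.49 CPM in WT, a value that is uncertain because near-identical Gstp copies can share its reads.

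Thioredoxins pass electrons to peroxiredoxins and ribonucleotide reductase, and thioredoxin reductases, which are selenoproteins, recharge them with NADPH. Txn1, the cytosolic thioredoxin, stood at 33.2, 41.7 and 44.3 CPM in cKO1 to cKO3, against 50.9, 46.7 and 45.3 CPM in WT1 to WT3. The groups did not overlap, but cKO3 and WT3 were close to each other and cKO1 was the lowest. The log2 fold change was -0.26 ± 0.12 (SE; adjusted p = 0.685 in edgeR), and it was -0.15 without cKO1. Txn2, the mitochondrial thioredoxin, stood at 87.9 ± 2.58 CPM in cKO and 86.2 ± 9.41 CPM in WT.

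The reductases and the inhibitor of thioredoxin were not called either. Txnrd1, the cytosolic enzyme and a known NRF2 target, stood at 56.1 ± 1.38 CPM in cKO and 54.7 ± 5.22 CPM in WT, with a log2 fold change of 0.04. Txnrd2, the mitochondrial enzyme, stood at 25.5, 36.0 and 29.5 CPM in cKO1 to cKO3, against 40.3, 38.1 and 30.9 CPM in WT1 to WT3. The groups overlapped, and the log2 fold change was -0.26 ± 0.15 (SE; adjusted p = 0.792 in edgeR). Txnip, which binds and inhibits thioredoxin and is known to follow glucose supply, stood at 609, 789.9 and 682 CPM in cKO1 to cKO3, against 547, 566 and 649.9 CPM in WT1 to WT3. Its log2 fold change was 0.24 ± 0.12 (SE; adjusted p = 0.733 in edgeR), and cKO1 lay below WT3. Txnip shares 606 exonic bases with the gene model Gm15441 on the opposite strand. In all, 7 of 34 members shared exonic bases with a gene on the other strand. They were Gss, Txnrd2, Txnip, Prdx2, Prdx5, Keap1 and Hmox2, and no source used here says whether the counting used strand.

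Peroxiredoxins are abundant peroxidases that thioredoxin mostly recharges. Of the 6, 4 had a log2 fold change below 0 and 2 above, from -0.30 for Prdx4 to 0.08 for Prdx3. Prdx1, the main cytosolic form, stood at 98.3 ± 9.34 CPM in cKO and 107 ± 6.44 CPM in WT. Prdx2, the form that abounds in red blood cells, stood at 64.4, 73.5 and 74.2 CPM in cKO1 to cKO3, against 79.8, 73.4 and 76.4 CPM in WT1 to WT3. The erythroid markers, 6 of 7 found in the table, summed to 199 CPM in cKO1 and to 0.277 to 5.80 CPM in the other libraries, and Prdx2 was lowest in cKO1. The part of erythroid cells in the Prdx2 values was not tested. Prdx3, the mitochondrial form, stood at 43.3 ± 3.61 CPM in cKO and 41.0 ± 2.54 CPM in WT.

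Prdx4, the form of the endoplasmic reticulum, stood at 7.68, 9.54 and 8.08 CPM in cKO1 to cKO3, against 10.4, 11.4 and 9.35 CPM in WT1 to WT3. The groups overlapped by cKO2 and WT3 alone, and the log2 fold change was -0.30 ± 0.14 (SE; adjusted p = 0.719 in edgeR). Prdx5, found in several compartments, stood at 34.2 ± 1.84 CPM in cKO and 35.8 ± 2.18 CPM in WT, and shares 409 exonic bases with Trmt112 on the opposite strand. Prdx6, the form that relies on glutathione, stood at 122, 101 and 89.7 CPM in cKO1 to cKO3, against 94.2, 123 and 90.7 CPM in WT1 to WT3. It was highest in cKO1 and WT2, the same pair as for Gclc. Srxn1, sulfiredoxin, which rescues overoxidized peroxiredoxins, had 3, 9 and 13 reads in cKO1 to cKO3, against 17, 27 and 13 reads in WT1 to WT3. The separation of its groups rests on 0.724 CPM in cKO3 and 0.732 CPM in WT3, which had the same number of reads. Its log2 fold change was -1.22 ± 0.54 (SE), with an adjusted p of 0.665 in edgeR, and was -0.46 with cKO1 and WT2 both left out.

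Superoxide dismutases turn superoxide into hydrogen peroxide, which catalase breaks down. Sod1, the copper-zinc enzyme of the cytosol, stood at 114, 124 and 108 CPM in cKO1 to cKO3, against 125, 148 and 124 CPM in WT1 to WT3. The groups were separated by less than 1 CPM, between cKO2 and WT3, and WT2 was the highest. The log2 fold change was -0.20 ± 0.10 (SE; adjusted p = 0.719 in edgeR), and it was -0.12 without WT2. Sod2, the manganese enzyme of mitochondria, stood at 61.1 ± 3.96 CPM in cKO and 61.5 ± 6.92 CPM in WT, with a log2 fold change of -0.01. Cat, catalase of the peroxisome, stood at 99.6 ± 2.91 CPM in cKO and 96.7 ± 6.77 CPM in WT, with a 95% interval of -0.14 to 0.22 on the log2 scale.

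The NRF2 axis held both the regulators and their classical targets. Nfe2l2, which encodes NRF2, stood at 29.6, 40.3 and 44.9 CPM in cKO1 to cKO3, against 34.2, 25.5 and 34.3 CPM in WT1 to WT3. The lowest library of each group was cKO1 and WT2, and the groups overlapped. Its log2 fold change was 0.29 ± 0.18 (SE; adjusted p = 0.822 in edgeR). Keap1, the adaptor that sends NRF2 to degradation, stood at 65.9 ± 2.28 CPM in cKO and 58.5 ± 9.33 CPM in WT. Keap1 shares 510 exonic bases with Gm16754 on the opposite strand. Nqo1, a quinone reductase often used as a readout of NRF2, was barely detected, with 14, 8 and 11 reads in cKO1 to cKO3 and 18, 15 and 16 reads in WT1 to WT3. In CPM its cKO libraries (0.436 to 0.814) lay below its WT libraries (0.897 to 0.998), and the adjusted p in edgeR was 0.792. With Glrx, Txn1, Srxn1 and Sod1, Nqo1 made 5 members whose groups did not overlap with cKO lower, where 8.12% of all genes tested were separated that way. A difference of a few genes between these shares is not read as a result about the members.

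The heme oxygenases varied between libraries more than between genotypes. Hmox1, the inducible enzyme that degrades heme and is abundant in macrophages of the spleen, stood at 10.3, 23.7 and 2.28 CPM in cKO1 to cKO3, against 2.61, 11.2 and 4.05 CPM in WT1 to WT3. It was the most variable member within groups. The log2 fold change was 1.03 ± 0.81 (SE), with an adjusted p of 0.880 in edgeR, and it was 0.08 without cKO2 and 1.86 without WT2. A receptor that marks macrophages, Csf1r, was also highest in cKO2. It stood at 9.07, 22.0 and 2.40 CPM in cKO1 to cKO3, against 1.66, 4.25 and 1.46 CPM in WT1 to WT3. Slc40a1, the iron exporter of macrophages and an NRF2 target, stood at 4.42, 11.2 and 1.34 CPM in cKO1 to cKO3, against 0.555, 2.27 and 0.901 CPM in WT1 to WT3. Transcripts of the myeloid list were present in every library, and its 9 markers, all found in the table, summed to 71.1, 102 and 41.4 CPM in cKO1 to cKO3, against 36.4, 68.6 and 36.8 CPM in WT1 to WT3. Lyz2, the most abundant of them by CPM, was highest in cKO2 (41.2 CPM), as were Cd68, Itgam, Fcer1g and Tyrobp. Adgre1 was instead highest in cKO1 (15.8 CPM) and WT2 (15.5 CPM), with 12.4 CPM in cKO2. S100a8 and S100a9 were also highest in cKO1, and S100a9 was at 0 in cKO2, cKO3, WT1 and WT2. The part of such cells in the Hmox1 values was not tested.

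Hmox2, the constitutive heme oxygenase, stood at 141, 109.6 and 93.5 CPM in cKO1 to cKO3, against 94.6, 180.0 and 95.8 CPM in WT1 to WT3. It was highest in cKO1 and WT2, where Tnfaip3, a feedback gene of NF-kappaB, stood at 4612 CPM and 4898 CPM, against 1152.5 to 2332 CPM elsewhere. Its log2 fold change was -0.11 ± 0.27 (SE), and was 0.27 without WT2 and -0.28 without cKO1. Hmox2 shares 892 exonic bases with Cdip1 on the opposite strand. The part in these values of what cKO1 and WT2 share was not tested.

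**Figure D4:**
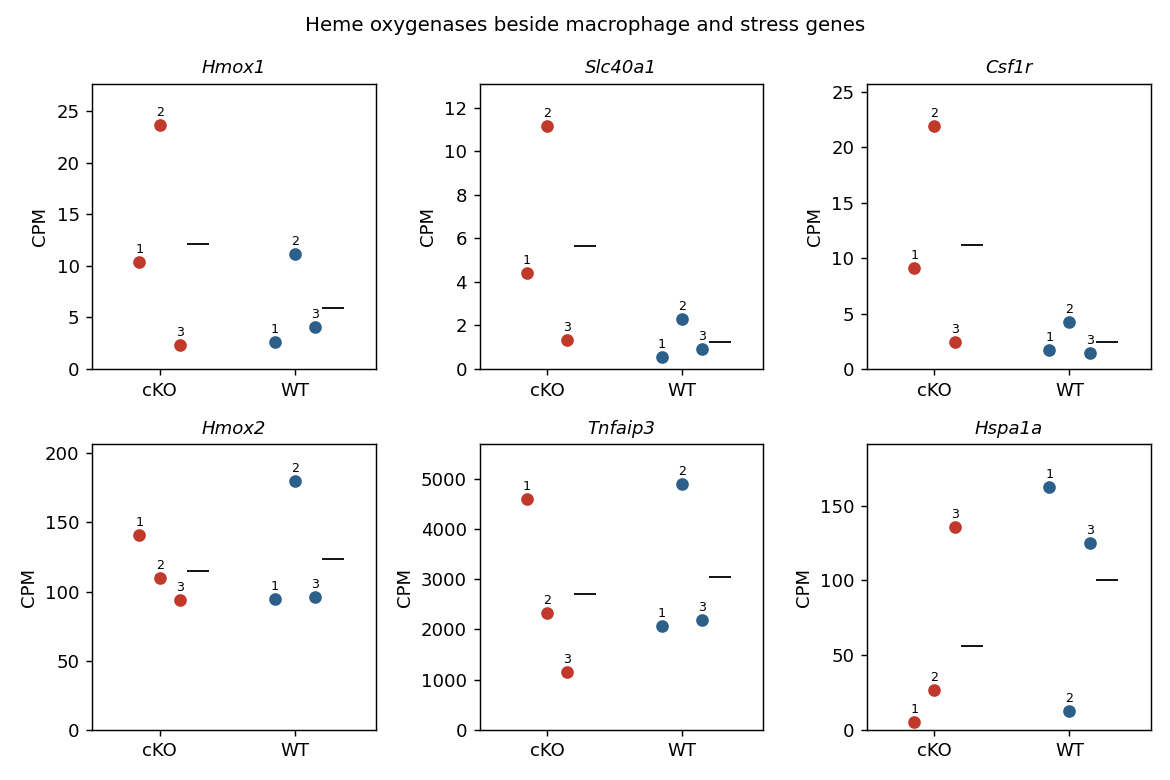
CPM in each library (points, numbered by replicate) and group mean (dash, n = 3) of Hmox1 with Slc40a1 and Csf1r, and of Hmox2 with Tnfaip3 and Hspa1a. Hmox1, Slc40a1 and Csf1r are highest in cKO2, while Hmox2 and Tnfaip3 are highest in cKO1 and WT2, where Hspa1a is lowest.

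NRF2 binds the antioxidant response element, searched here as TGACNNNGC on both strands in RefSeq windows of GRCm38.p6 from 250 bases before to 50 after the start site. Windows were found for 29 of 34 members, and 6 of these members (20.7%) held a match, against 14.0% of 27025 genes. A gene can have several windows (40 in all for the 29 members, 32851 for the 27025 genes) and counted if any held a match. The 6 sites are shown because they are the matches found among the 29 members with a window. Each has 10 bases on either side, on the strand of the gene, with the element in capitals.
Gclm: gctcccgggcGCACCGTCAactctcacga
Nfe2l2: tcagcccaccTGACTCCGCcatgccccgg
Prdx1: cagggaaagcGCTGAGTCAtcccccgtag
Sod1: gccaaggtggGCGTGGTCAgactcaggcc
Srxn1: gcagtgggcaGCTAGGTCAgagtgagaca
Txnrd1: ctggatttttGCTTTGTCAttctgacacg
They lie at chr3:122245413-122245441, chr2:75704885-75704913 (minus strand), chr4:116685456-116685484, chr16:90220696-90220724, chr2:152105542-152105570 and chr10:82859104-82859132, in the order shown. The site of Prdx1 overlaps a TGANTCA element. That of Txnrd1, whose gene spans 82833951 to 82897724, lies before a start site inside the gene. None of the 6 genes was called, and their log2 fold changes ran from -1.22 for Srxn1 to 0.29 for Nfe2l2. Glrx held no match in this window.

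Methionine sulfoxide reductases repair oxidized methionine, and both members were level between the groups. Msra, which acts on the S form, stood at 13.6 ± 0.777 CPM in cKO and 12.9 ± 0.616 CPM in WT. Msrb1, a selenoprotein that acts on the R form, stood at 17.7 ± 2.38 CPM in cKO and 17.9 ± 1.05 CPM in WT. Their log2 fold changes were 0.07 and -0.02.

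Other genes of the same systems were taken from lists chosen by function. Of 29 further glutathione enzymes and transporters, 23 were tested and none was called by edgeR, DESeq2 or limma-voom, with 3 lower and 1 higher at an unadjusted p under 0.05, where 5.01% of all genes tested were lower and 2.68% higher. The lowest p-values there belonged to the theta-class transferases Gstt2 and Gstt3. Gstt2 stood at 11.9, 11.8 and 12.3 CPM in cKO1 to cKO3, against 17.9, 14.9 and 17.8 CPM in WT1 to WT3 (log2 fold change -0.49 ± 0.11 SE, adjusted p = 0.201 in edgeR). Gstt3 averaged 1.70 ± 0.362 CPM in cKO and 3.09 ± 0.360 CPM in WT (adjusted p = 0.365 in edgeR).

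Of 28 further proteins of the thioredoxin fold, selenoproteins and methionine sulfoxide reductases, 25 were tested and none was called by edgeR or limma-voom, while 3 were lower and 1 higher at an unadjusted p under 0.05, the bound that 5.01% and 2.68% of all genes passed in those directions. The median log2 fold change was -0.08, and 19 of 25 lay below 0, against 6261 of 12887 genes tested. Sh3bgrl, a small protein with a glutaredoxin-like fold, stood at 72.3, 80.8 and 86.2 CPM in cKO1 to cKO3, against 111, 116 and 105 CPM in WT1 to WT3. All its cKO libraries lay below its WT libraries, as they did for 8.12% of all genes tested. The log2 fold change was -0.47 ± 0.09 (SE), with an adjusted p of 0.119 in edgeR. DESeq2 called Sh3bgrl, where it called 1.19% of all genes lower. Nxn, nucleoredoxin, averaged 9.96 ± 0.418 CPM in cKO and 7.85 ± 0.0799 CPM in WT (log2 fold change 0.34 ± 0.11 SE, adjusted p = 0.490 in edgeR).

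Of 30 further targets and regulators of NRF2, 28 were tested, none was called by edgeR or limma-voom, and DESeq2 called Tkt alone, the deleted gene, whose lower level is set by the design. At an unadjusted p under 0.05, Tkt was also the 1 lower gene, and 2 were higher, where 5.01% of all genes tested were lower and 2.68% higher. Tkt and Slc40a1 had the lowest p-values, and the median log2 fold change was 0.006. Of 20 enzymes listed as suppliers of NADPH or tied to that supply, 18 were tested and none was called by edgeR, DESeq2 or limma-voom. Their median log2 fold change was 0.10. At an unadjusted p under 0.05, 1 gene was higher, where 2.68% of all genes tested were. That gene was Me2, the mitochondrial malic enzyme, which is known to use mainly NAD and so does not match the list's name. It stood at 89.4, 80.5 and 82.3 CPM in cKO1 to cKO3, against 72.5, 68.8 and 73.7 CPM in WT1 to WT3, without overlap (log2 fold change 0.23 ± 0.07 SE, adjusted p = 0.459 in edgeR). Of all genes tested, 6.10% were separated in that direction. Idh1, the cytosolic isocitrate dehydrogenase that makes NADPH, averaged 4.26 ± 0.185 CPM in cKO and 3.49 ± 0.400 CPM in WT (adjusted p = 0.824 in edgeR).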

How the data were processed

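RNA of sorted Treg cells was sequenced on an Illumina platform, per the labels. The build was mm10 and the tools were DESeq2 1.16.1, featureCounts 1.5.0-p3 and HISAT2 2.0.5, listed without role or order, per the submitters' processing notes. The authors deposited estimated counts per gene, not normalized, of which 45.4% to 46.3% per library were not whole to within 0.01 for a reason not given in the sources used here. All values of 20 members, Glrx among them, were whole. The authors also deposited FPKM, identified as such from the values, and group means, which were not used.

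Counts were rounded. In R 4.3.3, edgeR 4.0.16 (filterByExpr with a minimum count of 10, TMM scaling, quasi-likelihood F test with group as the only term, legacy set to TRUE) was fitted to 12887 genes across the whole table, with Benjamini-Hochberg adjustment and a threshold of 0.05. CPM used TMM-adjusted library sizes. Standard errors came from the F statistic. The code was tested on simulated data. An exact permutation test of 3 against 3 libraries cannot go under a two-sided p of 0.1. Alternatives were DESeq2 1.42.0, limma-voom and limma-trend on log2(FPKM + 1) with limma 3.58.1, other scalings and filters, robust empirical Bayes, a newer quasi-likelihood fit, a replicate block, and libraries left out. Every member is named, and of each other list the called genes and the 2 with the lowest p. The members and lists were chosen with earlier results of these data known. Coordinates and promoters came from RefSeq on GRCm38.p6, the same build as mm10, and exon overlaps from GENCODE on GRCm38. Protein sequences were not used here.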

Additional observations from a re-analysis of the deposited data

How the results depend on the processing

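Glrx was lower in cKO in all 17 alternatives, with log2 fold changes from -0.997 to -0.77, and was the only member called in any. It was called with DESeq2 (-0.84), with no low-count filter (-0.84) and with robust empirical Bayes (-0.85), so that 1 member was called lower under each of these 3. Without single libraries its adjusted p was 0.0841 to 0.245. With the replicate block it was -0.86 (adjusted p = 0.204). The deviations of same-numbered libraries from their group means had correlations of -0.28, 0.06 and 0.26, and cKO1 correlated best with WT2 (0.31). With 3 libraries per group, these values cannot decide whether the numbers pair the libraries. No member was called higher in any alternative. The median over the members ranged from -0.032 to 0.028 without single libraries.

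Of the 34 members, 19 kept their direction in every alternative, and 15 reversed in some, all of them with a reported log2 fold change within 0.13 of 0. With FPKM the reversals were Glrx2 (-0.047) and Gclc (-0.022). With cKO1 and WT2 both left out they were Gss (0.0035), Gsr (-0.010), Txn2 (-0.039), Txnrd1 (-0.048), Prdx1 (0.0029), Sod2 (0.055) and Hmox2 (0.095). Without single libraries the ranges that crossed 0 were -0.011 to 0.093 for Cat, -0.060 to 0.082 for Gclc, -0.062 to 0.090 for Glrx2, -0.024 to 0.12 for Glrx5, -0.091 to 0.14 for Gpx1, -0.030 to 0.074 for Gsr, -0.21 to 0.072 for Gss, -0.020 to 0.098 for Gstp1, -0.28 to 0.27 for Hmox2, -0.14 to 0.058 for Msrb1, -0.10 to 0.17 for Prdx6, -0.057 to 0.087 for Sod2, -0.058 to 0.097 for Txn2 and -0.040 to 0.086 for Txnrd1. Srxn1 and Nqo1 could not be tested under the stricter filter or with FPKM. The cause of these changes was not tested.

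Over all genes the number called was 27 as reported, 177 with DESeq2, 43 with no low-count filter, 48 with robust empirical Bayes, 71 with cKO1 and WT2 both left out, 30 without WT2, and 0 with the replicate block or without any other single library (at an unadjusted p under 0.05, 681 to 1327 without single libraries, the highest without WT2, and 811 with the block). Depth limits Srxn1 and Nqo1, which had 3 to 27 reads per library.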
